A study of Mus musculus with 4 samples.

Results

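The genes described here are 9 mouse genes that hold, sense or move zinc: the metallothionein genes Mt1, Mt2 and Mt3, the zinc sensor gene Mtf1, the exporter genes Slc30a1 and Slc30a4, and the importer genes Slc39a1, Slc39a10 and Slc39a14. Every probe set of the array that was annotated to exactly 1 symbol, and to 1 of these 9, was taken, which gave 19 of 45037 probe sets. They were read in HL-1 cells, a line derived from mouse atrial muscle that goes on contracting in culture. The stimulated group (2 arrays) was grown to confluence and then driven by electric pulses at 300 beats per minute over 24 h, a rate that the labels put at about 1.5 to 2 times that of the controls. The control group (2 arrays) came from the same line in the same medium and contracted spontaneously, with no pulses. No group received pulses at the spontaneous rate, so the faster beating and the electric field cannot be told apart. HL-1 is a single immortal line kept in a supplemented medium, and nothing in the labels beyond experiment numbers says that arrays of a group came from separate cultures, so each p-value covers only the scatter among these arrays, part of which may be technical.

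Zinc that enters a cell is bound by metallothioneins, small proteins rich in cysteine that can take up and release several metal ions. Transporters of the Slc39 (ZIP) family move zinc into the cytosol, and those of the Slc30 (ZnT) family move it out of the cytosol, across the cell membrane or into vesicles. Free zinc in the cytosol is sensed by the zinc finger factor MTF-1, which binds metal response elements in DNA and is known to switch on Mt1, Mt2 and Slc30a1 in the mouse, so that storage and export go up when zinc does. In heart muscle, free zinc and calcium are linked, and ZnT1, the product of Slc30a1, is also known to restrain the L-type calcium channel.

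The start regions of Mt2, Slc30a1 and Mt1 are shown because these are the best known MTF-1 targets among the 9 genes, and because the first of them lay apart between the groups in its probe set and the second in both of its probe sets. Each sequence is the RefSeq promoter window of assembly GRCm38.p6, 250 bases before the annotated start and 50 bases from it on, written 5′ to 3′ on the strand of the gene. Capitals mark matches to the core of the metal response element, searched as TGCACNC or TGCGCNC on both strands; a match on the opposite strand is read as its reverse complement.
Mt2, chr8:94172368-94172667, plus strand: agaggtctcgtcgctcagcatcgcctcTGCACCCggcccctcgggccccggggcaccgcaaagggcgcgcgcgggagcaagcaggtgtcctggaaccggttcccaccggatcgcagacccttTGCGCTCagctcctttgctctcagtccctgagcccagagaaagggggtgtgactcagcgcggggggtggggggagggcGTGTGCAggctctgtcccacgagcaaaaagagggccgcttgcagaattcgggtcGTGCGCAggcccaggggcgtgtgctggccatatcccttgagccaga
Slc30a1, chr1:191906531-191906830, plus strand: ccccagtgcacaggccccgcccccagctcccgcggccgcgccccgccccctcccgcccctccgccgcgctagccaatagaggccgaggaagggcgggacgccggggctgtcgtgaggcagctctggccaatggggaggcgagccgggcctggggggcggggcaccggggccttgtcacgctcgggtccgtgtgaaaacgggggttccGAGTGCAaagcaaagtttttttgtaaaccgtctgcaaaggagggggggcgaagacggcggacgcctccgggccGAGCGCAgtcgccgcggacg
Mt1, chr8:94178839-94179138, plus strand: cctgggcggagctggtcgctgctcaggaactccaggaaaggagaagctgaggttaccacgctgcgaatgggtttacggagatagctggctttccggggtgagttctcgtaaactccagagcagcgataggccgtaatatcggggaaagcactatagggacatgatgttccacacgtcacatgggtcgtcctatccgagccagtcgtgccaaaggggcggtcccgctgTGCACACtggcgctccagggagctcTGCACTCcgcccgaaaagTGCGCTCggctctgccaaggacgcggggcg

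The Mt2 window held 4 metal response element matches, which began at positions -223, -128, -50 and 5 counted from the annotated start. Of all 32851 windows of this length in the table, 25.7% held at least 1 match, 7.11% at least 2, 1.97% at least 3 and 0.517% at least 4. The Mt1 window held 3 matches, at -23, 3 and 21, and the Slc30a1 window 2, at -43 and 31. Among the other genes, Slc30a4 had 3 matches, Mt3 had 1, and the windows of Mtf1, Slc39a1 and Slc39a10 (which has 2 windows) had 0. In all, 8 of the 9 genes had a window, and Slc39a14 had none in the table. No match overlapped a match to any other motif searched in these windows. The antioxidant response element, searched as TGACNNNGC, was found once each in the windows of Mt2, Slc30a1 and Slc39a1 and in 12.4% of all windows. The core of the glucocorticoid response element, searched as ACANNNTGT, was found among these genes only in the Mt1 window and in 6.85% of all windows. The heat shock element, searched as GAANNTTC, had 0 matches in the 9 windows and at least 1 in 7.86% of all windows. Only these windows of 300 bases around the annotated start were searched. Elements outside a window, or near another start of a gene, would not be counted, so the counts do not rank whole promoters. A match is a description of letters and not a measured binding site.

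**Figure D1:**
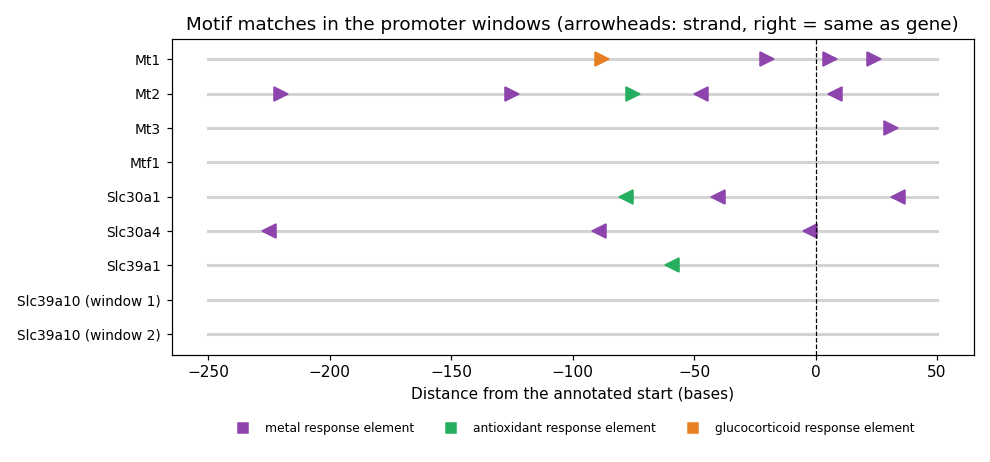
Matches to the metal (purple), antioxidant (green) and glucocorticoid (orange) response elements in the 9 promoter windows of 8 genes, by distance from the annotated start in bases; arrowheads pointing right are on the strand of the gene, and the glucocorticoid core reads alike on both strands. Mt2 has 4 metal response element matches, Mt1 and Slc30a4 have 3 each, Slc30a1 has 2 and Mt3 has 1.

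The levels are RMA values on the log2 scale, in which a difference of 1 is a doubling. Brightness is not read as the relative amount of different transcripts. It served only to apply the filter, to pick a probe set for each list gene and to describe the marker lists. A probe set was tested where its mean over the 4 arrays was at least 4.39, the 40th percentile of the table. Of the 19 probe sets 17 were tested, with at least 1 for each of the 9 genes, and 2 lay below this level (1452990_at of Mtf1 and 1457770_at of Slc39a14). A probe set is said to have risen or fallen where limma's moderated test gave a Benjamini-Hochberg adjusted p under 0.05 over all 27022 probe sets tested. The arrays had medians of 4.96 to 5.01, correlated at r = 0.989 and 0.991 across probe sets within groups and at 0.969 to 0.975 between groups, and correlations across probe sets do not treat them as replicates. All 8 atrial muscle markers lay above the filter level in both groups, but 7 of the 8 had negative differences and 7 of the 8 did not overlap between groups, where 7224 of all 13058 genes did not. Of these Nppa, the natriuretic peptide gene, rose by 2.00 (adjusted p = 0.00913 by limma) and Ryr2, the calcium release channel gene, fell by 0.85 (adjusted p = 0.0498). Of 7 fibroblast markers, Col1a1, Dcn, Pdgfra and Postn lay above the filter level in both groups and Col1a2, Col3a1 and Lum below it. The summed linear level of that list was 156 to 249 in stimulated cells and 160 to 305 in controls. Col1a1 read 5.49 and 7.14 in stimulated cells, against 5.51 and 7.55 in controls, so it was higher on both arrays numbered 2. Of 5 endothelium markers only Kdr lay above the filter level. The summed linear level of the endothelium list was 99.1 to 106 in stimulated cells and 107 to 122 in controls. These sums include the markers below the filter level. Kdr itself overlapped, at 5.64 and 5.43 in stimulated cells, against 6.02 and 5.63 in controls (adjusted p = 0.388 by limma). Of 5 leukocyte markers, Cd68 and Cd3e had a mean above the filter level in stimulated cells, and Adgre1 and Cd3e in controls, while Ptprc and Itgam lay below it in both. The summed linear level of the leukocyte list was 211 to 220 in stimulated cells and 138 to 162 in controls. It moved through Cd68, a lysosomal protein gene that rose by 2.08 (adjusted p = 0.0232 by limma), with a mean of 6.46 in stimulated cells and of 4.39 in controls, just under the filter level, so that it was tested only through its level in stimulated cells. The smooth muscle markers Acta2, Tagln and Cnn1 were high in both groups, Smtn lay above the filter level in both, and Myh11 lay below it. Tagln differed by 0.90 (adjusted p = 0.0997 by limma) and Smtn by -0.60 (adjusted p = 0.0749), both without overlap between groups. Acta2 and Cnn1 overlapped. The part of other cells in the results below was not tested.

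Slc30a1, which encodes the zinc exporter of the cell membrane, rose with stimulation. Of the 9 genes it alone had a probe set that passed the test: 1 of 17 probe sets rose and 0 fell, where 3.85% of all probe sets tested passed (2.46% higher and 1.38% lower). A single call cannot set the group of genes apart from that background. Mt2 had the next largest higher value and missed the threshold, and Mt1 overlapped between the groups. At an unadjusted p under 0.05 there were 7 of the 17 probe sets, beside 23.9% of all 27022. Groups did not overlap in 9 of the 17, against 54.1% of all probe sets, which is near the background.

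**Figure D2:**
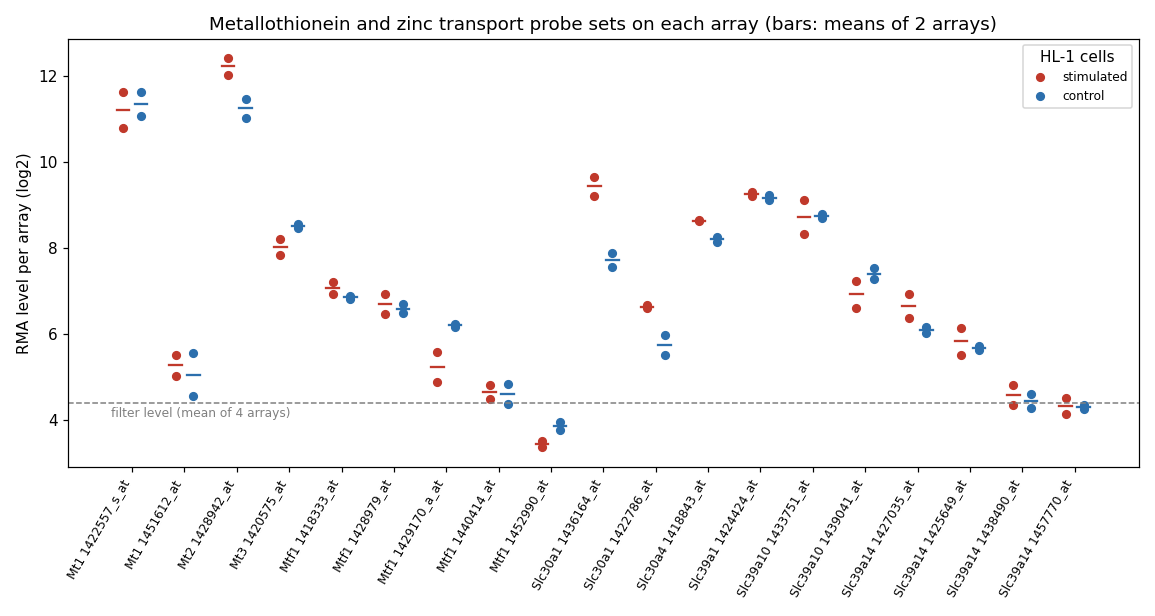
RMA levels (log2) of the 19 probe sets on each of the 4 arrays, with stimulated cells (red) left of control cells (blue); points are arrays, short bars are means of 2 arrays and the dashed line is the filter level of 4.39. Both Slc30a1 probe sets and the Mt2 probe set have both stimulated points above both control points, while the points of Mt1 overlap.

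The Slc30a1 probe set 1436164_at read 9.22 and 9.66 on the stimulated arrays, against 7.57 and 7.88 on the control arrays. Both stimulated arrays stood well above both controls, with a gap larger than the spread within either group. The mean was 9.44 ± 0.31 in stimulated cells and 7.73 ± 0.22 in control cells (SD, n = 2 arrays each), so the rise was 1.71 ± 0.20 (SE of the fit), which is 3.28-fold, with an adjusted p of 0.0248 by limma and a 95% interval of 1.23 to 2.20. By unadjusted p it ranked 147th of the 27022 probe sets. The call was lost in each fit that left out an array, at 1.93 without stimulated 1 (adjusted p = 0.0558), 1.49 without stimulated 2 (adjusted p = 0.0635), 1.55 without control 1 (adjusted p = 0.118) and 1.87 without control 2 (adjusted p = 0.13). With both stimulated arrays above both controls, leaving out 1 array could not turn the direction, so its sign in these fits adds nothing. The call needed all 4 arrays.

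The other Slc30a1 probe set, 1422786_at, read 6.67 and 6.61 in stimulated cells, against 5.97 and 5.51 in controls. Its difference was 0.90 ± 0.18 and missed the threshold narrowly (adjusted p = 0.0557 by limma, 95% interval 0.45 to 1.35). It passed with the 60th percentile filter (adjusted p = 0.0418), with trended and robust variances (adjusted p = 0.0479) and with a replicate block (adjusted p = 0.0384), and over all its alternatives the adjusted p reached 0.232. Both probe sets of the gene thus pointed the same way, with the groups apart. The within-array difference of the first probe set from the second was 2.55 and 3.05 in stimulated cells, against 1.59 and 2.38 in controls, so their changes differed by 0.81 (exact permutation p = 0.333, two-sided, the smallest that 2 against 2 arrays allow).

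Slc30a4 encodes ZnT4, an exporter of intracellular vesicles. It read 8.66 and 8.63 in stimulated cells, against 8.14 and 8.27 in controls. The stimulated arrays nearly coincided and both lay above the controls, by 0.44 ± 0.13 (adjusted p = 0.112 by limma, 95% interval 0.12 to 0.76).

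Mt2, a metallothionein gene expressed in most tissues and induced by metals and glucocorticoids, read 12.04 and 12.41 in stimulated cells, against 11.03 and 11.48 in controls. Both stimulated arrays lay above both controls. The difference was 0.97 ± 0.21, or 1.96-fold, and did not pass (adjusted p = 0.0614 by limma, 95% interval 0.46 to 1.48). It passed in 4 of the alternatives that kept all 4 arrays, with the 60th percentile filter, with trended and robust variances, with all probe sets of a gene averaged and with a replicate block, at an adjusted p of 0.0266 to 0.0485, and over all alternatives its adjusted p reached 0.223. The probe set is bright, and whether so bright a level narrowed the difference was not tested.

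Mt1, its neighbour on chromosome 8 and a protein of the same type, did not separate the groups. The bright probe set 1422557_s_at read 10.78 and 11.63 in stimulated cells, against 11.08 and 11.62 in controls. The lowest of the 4 values was a stimulated array, and the 2 stimulated arrays differed from each other by more than the group means did. The difference was -0.14 ± 0.32 (adjusted p = 0.84 by limma), with a 95% interval of -0.92 to 0.63 that leaves room for changes of either sign. The dimmer probe set 1451612_at read 5.04 and 5.51 in stimulated cells, against 4.57 and 5.55 in controls, a difference of 0.21 ± 0.34 (adjusted p = 0.768). The within-array difference of Mt2 from the bright Mt1 probe set was 1.25 and 0.78 in stimulated cells, against -0.05 and -0.15 in controls. The changes of the genes thus differed by 1.12 without overlap between groups (exact permutation p = 0.333, two-sided, again the smallest possible). The suffix _s_at marks probes that can match transcripts of more than 1 gene, and Mt1 and Mt2 are close paralogs, so the split of signal between them is uncertain.

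Mt3, a metallothionein best known from the brain, where it limits neurite growth, read 7.83 and 8.22 in stimulated cells, against 8.56 and 8.48 in controls. Both stimulated arrays lay below both controls, by -0.49 ± 0.17 (adjusted p = 0.152 by limma, 95% interval -0.90 to -0.08). Without stimulated 1 the difference was -0.30. The protein-coding genes Mt4, Mt3, Mt2 and Mt1 follow each other without another between them on chromosome 8 in RefSeq, and the signs of the neighbours differed. Mt4, expressed mainly in stratified epithelium, lay below the filter level, at 3.67 on both stimulated arrays, against 3.57 and 3.54 on the control arrays.

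Mtf1 encodes the zinc sensor itself, and its 5 probe sets gave different pictures. The brightest, 1418333_at, read 6.94 and 7.22 in stimulated cells, against 6.90 and 6.82 in controls, a difference of 0.22 ± 0.15 (adjusted p = 0.436 by limma). The probe set 1429170_a_at read 4.90 and 5.58 in stimulated cells, against 6.25 and 6.17 in controls. In that probe set both stimulated arrays lay below both controls, by -0.97 ± 0.23 (adjusted p = 0.078 by limma, 95% interval -1.54 to -0.40), and by -0.63 without stimulated 1. The within-array difference of 1429170_a_at from 1418333_at was -2.04 and -1.64 in stimulated cells and -0.65 on both control arrays. The change of 1429170_a_at minus that of 1418333_at was thus -1.19 (exact permutation p = 0.333, two-sided, again the smallest possible). These probe sets had the lowest and the highest change of the 5, so a difference between them was built in. The suffix _a_at marks probes that match alternative transcripts of a gene. The probe sets 1428979_at and 1440414_at overlapped between the groups, at differences of 0.10 and 0.04, and 1452990_at, untested, had a difference of -0.42 below the filter level.

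Of the importers, Slc39a1 encodes ZIP1, a widely expressed zinc importer of the cell membrane. It read 9.21 and 9.32 in stimulated cells, against 9.11 and 9.23 in controls. The values overlapped, and the difference of 0.09 ± 0.13 had a 95% interval of -0.23 to 0.41 (adjusted p = 0.741 by limma).

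Slc39a10 encodes ZIP10, an importer that zinc-loaded MTF-1 is known to repress in the mouse. Its brighter probe set 1433751_at read 9.11 and 8.32 in stimulated cells, against 8.70 and 8.79 in controls. The stimulated arrays lay on either side of the controls, and the difference was -0.03 ± 0.26 (adjusted p = 0.965 by limma). Its other probe set, 1439041_at, read 7.25 and 6.61 in stimulated cells, against 7.27 and 7.53 in controls, a difference of -0.47 ± 0.23 (adjusted p = 0.284), which was -0.79 without stimulated 1 and -0.15 without stimulated 2. In both probe sets stimulated 2 was the lowest of the 4 arrays.

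Slc39a14 encodes ZIP14, which carries zinc, manganese and iron and is induced in the liver during inflammation. Its brightest probe set 1427035_at read 6.93 and 6.37 in stimulated cells, against 6.16 and 6.03 in controls. The stimulated arrays both lay above the controls, by 0.55 ± 0.20 (adjusted p = 0.177 by limma, 95% interval 0.05 to 1.05). That difference was 0.28 without stimulated 1, 0.83 without stimulated 2 and 0.22 with the probe sets of the gene averaged. The probe sets 1425649_at and 1438490_at overlapped, at differences of 0.15 and 0.14, and 1457770_at, below the filter level, differed by 0.02. In all 4 Slc39a14 probe sets stimulated 1 read higher than stimulated 2.

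**Figure D3:**
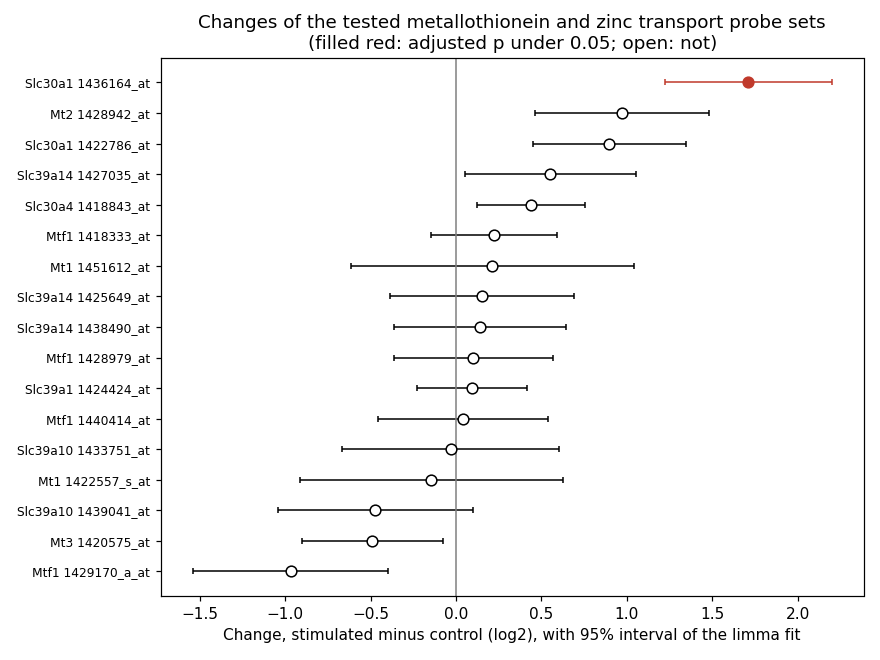
Change of each of the 17 tested probe sets, as log2 of stimulated over control, with the 95% interval of the limma fit as the bar; the filled red point passed an adjusted p of 0.05 and open points did not. The interval of Slc30a1 1436164_at runs from 1.23 to 2.20, and those of Mt1, Slc39a1, Slc39a10 and most Mtf1 and Slc39a14 probe sets span 0.

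The remaining zinc transporters were counted by the brightest probe set of each gene. Of 19 other Slc30 and Slc39 genes 13 were tested, and 0 passed by limma, where 4.06% of all 13058 genes counted this way passed (3.01% higher and 1.05% lower). At an unadjusted p under 0.05 there were 3 of the 13, beside 24.6% of all genes. Of the exporters 6 of 8 were tested, with a median difference of 0.05, and of the importers 7 of 11, with a median of 0.12, beside -0.0056 over all genes. Slc30a9, an exporter linked to mitochondria, read 8.86 and 8.88 in stimulated cells, against 9.32 and 9.46 in controls, a difference of -0.52 ± 0.13 (adjusted p = 0.0839). Slc30a6, a Golgi exporter, differed by 0.26 (adjusted p = 0.312). Slc39a6, which encodes ZIP6, a partner of ZIP10 in the membrane, read 9.87 and 9.75 in stimulated cells, against 9.26 and 9.22 in controls, a difference of 0.57 ± 0.13 (adjusted p = 0.0685), and its other probe set differed by -0.11. Slc39a13, a transporter of secretory vesicles needed in connective tissue, differed by -0.60 ± 0.16 (adjusted p = 0.0963). The difference was positive in 4 of the 6 exporters and 6 of the 7 importers, so in 10 of the 13, beside 6402 of all 13058 genes.

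Other genes reported as MTF-1 targets had a median difference of 0.39 over the 5 of 6 that were tested, and 0 passed, with 2 of the 5 at an unadjusted p under 0.05, beside 24.6% of all genes. Gclc, the catalytic subunit of the enzyme that starts glutathione synthesis, read 9.41 and 9.47 in stimulated cells, against 8.55 and 8.82 in controls, a difference of 0.75 ± 0.15 (adjusted p = 0.0509 by limma), and its other probe set differed by 0.54. Pgf, the placental growth factor gene, differed by 0.64 ± 0.21 (adjusted p = 0.143). Copper transporters and chaperones, which share metal-binding chemistry with metallothioneins, had a median of -0.17 over 11 of 11 tested, and 0 passed, with 2 of the 11 at an unadjusted p under 0.05, under the 24.6% of all genes. Atox1, a copper chaperone, differed by -0.60 ± 0.15 (adjusted p = 0.0852, other probe sets -0.61 and 0.02), and Atp7b, a copper pump, by -0.39 ± 0.13 (adjusted p = 0.142, other probe set -0.02).

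Glucocorticoids and cytokines that act through STAT3 are known inducers of metallothionein genes, so genes that respond to them were counted beside the metallothioneins. Of 8 glucocorticoid-responsive genes, all tested, 1 rose and 0 fell, with a median of 0.58. Of all genes 3.01% rose and 4.06% passed in either direction, and a single call sets neither this list nor the next apart. At an unadjusted p under 0.05 by limma were all of the 8 but Fkbp5, and in the next list Cebpb and Il6st, beside 24.6% of all genes. Groups did not overlap in 7 of the 8 and in 4 of the 7 tested in the next list, beside 7224 of all 13058 genes. Whether either list moved as a set was not tested. The riser was Per1, also a clock gene, which read 7.68 and 7.85 in stimulated cells, against 6.59 and 6.43 in controls, a rise of 1.26 ± 0.14 (adjusted p = 0.0232 by limma). Klf9 differed by 0.65 ± 0.13 (adjusted p = 0.0502), and Nr3c1, the glucocorticoid receptor gene, by -0.61 ± 0.13 (adjusted p = 0.0597), with its 4 other tested probe sets between -0.97 and -0.61. Of 9 genes of the IL-6 and STAT3 response 7 were tested, with a median of 0.18; 1 rose and 0 fell, beside the same 3.01% and 4.06% of all genes. The riser was the transcription factor gene Cebpb, which read 10.56 and 11.02 in stimulated cells, against 8.21 and 8.70 in controls, a rise of 2.33 ± 0.23 (adjusted p = 0.0187 by limma). The receptor subunit gene Il6st differed by 0.40 (adjusted p = 0.138) and by -0.31 to 0.73 in further probe sets, and Stat3 differed by -0.47 (adjusted p = 0.226) and by -0.41 and 0.07 in further ones.

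**Figure D4:**
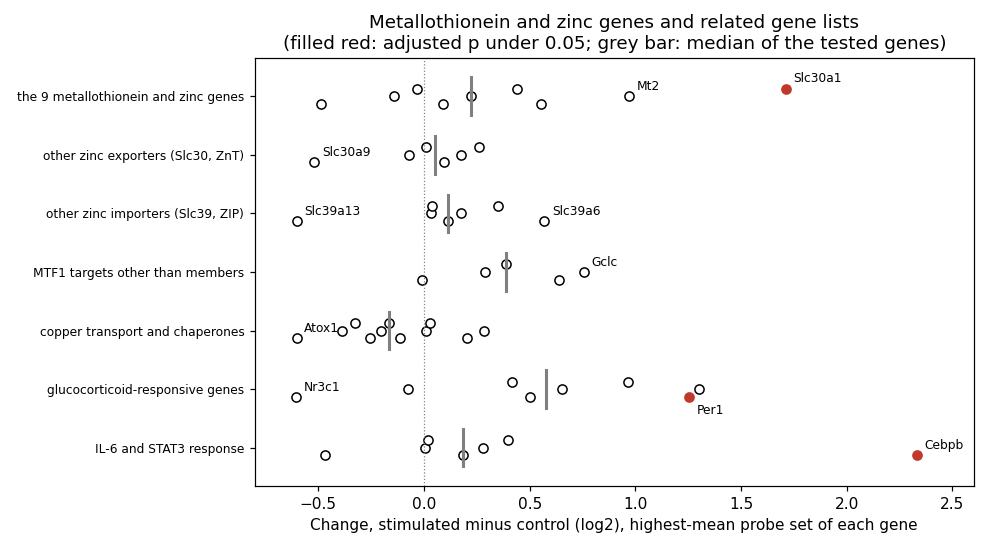
Changes (stimulated minus control, log2) of the 9 metallothionein and zinc genes and of 6 related gene lists, each gene by its brightest probe set; filled red points passed an adjusted p of 0.05, and grey bars are list medians. Slc30a1, Per1 and Cebpb passed, and the open points of the zinc exporters and importers lie on both sides of 0.

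The genes most like Slc30a1, Mt2 and Mt1 over the 4 arrays were found by the Euclidean distance between the arrays' deviations from each gene's own mean, among 12337 other genes. Nearest to Slc30a1 were Prkab2, a subunit of the energy-sensing kinase AMPK (distance 0.152), Gtpbp4, a nucleolar GTPase (0.209), and Simc1 (0.219), which rose by 1.57, 1.68 and 1.58. Nearest to Mt2 were Hsp90aa1, the stress-inducible HSP90 gene (distance 0.114), Osmr, a subunit of the oncostatin M receptor (0.12), and Csnk1e, a casein kinase (0.141). Of these Hsp90aa1 rose by 0.97 (adjusted p = 0.0474 by limma) and Csnk1e by 0.99 (adjusted p = 0.0398), and Osmr differed by 0.88 (adjusted p = 0.0725). Nearest to the bright Mt1 probe set were Frmd5 (distance 0.0432), Shd (0.0515) and Dhx36 (0.0658), which differed by -0.17, -0.16 and -0.19 and did not pass. With 4 arrays such likeness describes these samples only. The genes were picked for it on the same arrays, so changes near those of Slc30a1, Mt2 and Mt1 follow from the choice.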

How the data were processed

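The deposited values are log2 expression levels, which the authors made with RMA, per the submitters' processing notes. RMA removes background, brings all arrays to 1 common distribution by quantile normalization and gives a single value per probe set. Version and settings are not given in the sources used here. The array annotation gave 1 symbol to 34945 of the 45037 probe sets that are not controls, several to 932 and none to 9160. Its gene identifiers were looked up in a RefSeq table of GRCm38.p6, which held 34741 of those with 1 symbol and updated 0 names. The order of the metallothionein genes on chromosome 8 was also taken from it. The promoter windows came from a separate table of the same assembly.

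The 2 stimulated and 2 control arrays were compared in R 4.3.3 by limma 3.58.1 (lmFit, then eBayes, two-sided) over the 27022 probe sets past the 40th percentile, with Benjamini-Hochberg adjustment and a threshold of 0.05. Differences are stimulated minus control. The fit was tested on simulated data. Every probe set was tested in its own right, since the genes are defined by probe sets. Lists were counted by each gene's brightest probe set, without a set test. Named from each list were the genes that passed and the next 2 by p. Alternatives were other filters, centring, variance models, gene summaries, a replicate block and each array left out. The genes, lists and tests were chosen with earlier results of these data known. The number of arrays limits the precision.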

Additional observations from a re-analysis of the deposited data

How the results depend on the processing

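With the 60th percentile filter 3 zinc gene probe sets passed, with trended and robust variances 3, and with all probe sets of a gene averaged 2, against 1 in the fit reported; those added were Mt2 and, in the first and second of these, Slc30a1 1422786_at. Related list genes that passed numbered 5 with the 60th percentile filter, 4 with trended and robust variances, 5 with 1 probe set per gene and 4 with all probe sets averaged, against 2. Of all probe sets 1565 passed with trended and robust variances, against 1039. The control number comes partly from accession order, so the arrays share only a number; the deviations of stimulated 2 and control 2 correlated at 0.31 across probe sets, and with a replicate block 2040 of all probe sets, 3 zinc gene probe sets (both of Slc30a1 and that of Mt2) and 5 list genes passed. With 1 array left out 7 to 114 of all probe sets passed, and 0 zinc gene probe sets and 0 list genes in any of the 4 fits; the lone array is then assumed to vary like the other group. The causes of these shifts were not tested.

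The direction held for 9 of the 17 probe sets, Slc30a1 and Mt2 among them, in every alternative in which each was tested (8 to 11), and turned in some for 8, none of which passed. This count does not measure stability. Where groups did not overlap, in 9 of the 17 (not all the same ones) and 54.1% of all probe sets, leaving out an array could not turn the direction. Changing only the filter, the variance model or the block kept the group means, so it could not turn it either. Averaging probe sets gave 0.034 for Mt1 and -0.21 for Mtf1. With an array left out the differences ran from -0.57 to 0.28 for Mt1 1422557_s_at, -0.28 to 0.71 for Mt1 1451612_at, -0.13 to 0.33 for Mtf1 1428979_at, -0.18 to 0.27 for Mtf1 1440414_at, -0.43 to 0.36 for Slc39a10 1433751_at, -0.16 to 0.47 for Slc39a14 1425649_at and -0.10 to 0.38 for Slc39a14 1438490_at.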
